A study of Bos taurus with 34 samples.

Results

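The miR-29 family was described from the 3 rows bta-miR-29a, bta-miR-29b and bta-miR-29c, written here without the prefix for cattle, in small RNA libraries of the cell-free fraction of blood from 17 dairy cows. The rows were taken by name from 800 bovine miRNA names in each count file, and all 3 passed the filter on low counts in every comparison below. The family was picked with earlier results on disease status known, so its differences between SCE and healthy cows are given as a description. Intervals are printed without the members' p-values. Counts of members passing a threshold stand beside the share of all miRNAs, and nothing is read from them. Of the cows, 11 had subclinical endometritis (SCE), in which the lining of the uterus is inflamed without outward signs, and 6 were healthy, as classed by cytology and biopsy of the endometrium. The groups were SCE cows at day 25 (11 libraries), healthy cows at day 25 (5 libraries), SCE cows at day 45 (11 libraries) and healthy cows at day 45 (6 libraries). Days are those of the sample labels, while the series' design text gives days 21 and 44 after calving. The labels name serum and the design text plasma. The labels give no treatment, breed or age, and each library came from a single cow.

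MicroRNAs are short RNAs that pair with messenger RNAs through a stretch near their start, the seed, and lower the output of those messengers. The mature miR-29 RNAs share a seed, and they are best known for repressing collagens and other matrix proteins, in fibroblasts above all, and for repressing the DNA methyltransferases DNMT3A and DNMT3B. In mouse T cells miR-29 also restrains the transcription factors T-bet and Eomes and with them interferon gamma. In the RefSeq gene table for cattle (assembly ARS-UCD2.0) the hairpin genes stand in pairs, MIR29A nearest to MIR29B-1 and MIR29B-2 nearest to MIR29C. The mature miR-29b of both miR-29b hairpins falls in 1 row of the count files. Mature miR-29a and miR-29c are nearly identical, though their bovine sequences were not at hand here. The sources used do not say how the counting divided reads that match both, so the split between these 2 rows carries that uncertainty.

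Libraries held between 678389 and 28872153 counts. Both libraries of SCE cow 10 were shallow, with 1343401 counts at day 25 and 678389 at day 45. The red blood cell miRNA miR-486 took a median of 10.8% of counts in SCE cows and 45.3% in healthy cows at day 25, and 36.5% in SCE cows and 48.04% in healthy cows at day 45. Its range over the 33 libraries was 3.95 to 81.1%. The numbers in the library titles ran from 31 to 52 in SCE cows and from 13 to 24 in healthy cows, so if they follow the order of preparation, that order cannot be told apart from status. For healthy cow 3 the same values were deposited for both days, and they were used at day 45 alone. Which day they belong to cannot be told from the deposit.

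The family was a small and uneven part of these libraries. The 3 rows together made up a median of 0.267% of counts in SCE cows at day 25 (0.0175 to 0.549%), against 0.0468% in healthy cows (0.0197 to 0.244%). At day 45 the medians were 0.192% in SCE cows (0.0880 to 0.805%) and 0.0923% in healthy cows (0.0578 to 0.198%). Ranges of SCE and healthy cows overlapped on both days, and these percentages move with miR-486, which shares the same total. After scaling library totals to CPM with trimmed-mean (TMM) factors, the mean CPM over the 33 libraries was 1389.7 for miR-29a, 309.54 for miR-29c and 31.7 for miR-29b. These means ranked 47, 86 and 162 among 406 miRNAs.

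The order miR-29a above miR-29c above miR-29b held in 33 of 33 libraries. The log2 ratio of miR-29a to miR-29b averaged 5.61 over the 17 cows (SD 0.57), that of miR-29a to miR-29c 2.19 (SD 0.80) and that of miR-29c to miR-29b 3.42 (SD 0.66). Each ratio was positive in 17 of 17 cows, and each had an adjusted p of 2e-05 in a two-sided sign-flip permutation test, the smallest that the 100000 resamples can give. Both members of a ratio come from 1 library, so its depth and scaling cancel. A ligation step can favour one sequence over another, so these are ratios of reads, and ratios of molecules were not measured.

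Of the family's counts, miR-29a supplied a median of 81.2% over the 33 libraries, with a range of 61.3 to 91.7%. The share of miR-29c had a median of 16.6% and spread from 6.56 to 37.6%, and that of miR-29b had a median of 1.51% and spread from 0.400 to 7.19%. The lowest and the highest share of miR-29c both came from healthy cows at day 25, with 37.6% in cow 4 (95% Wilson interval 36.4 to 38.9%) and 6.56% in cow 2 (6.01 to 7.15%). These intervals cover counting error only. For miR-29b the highest share, 7.19% (6.03 to 8.54%), came from SCE cow 10 at day 45, where it rested on 118 counts in the shallowest library. The lowest, 0.400% (0.328 to 0.488%), came from SCE cow 8 at day 45 and rested on 96 counts.

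**Figure D1:**
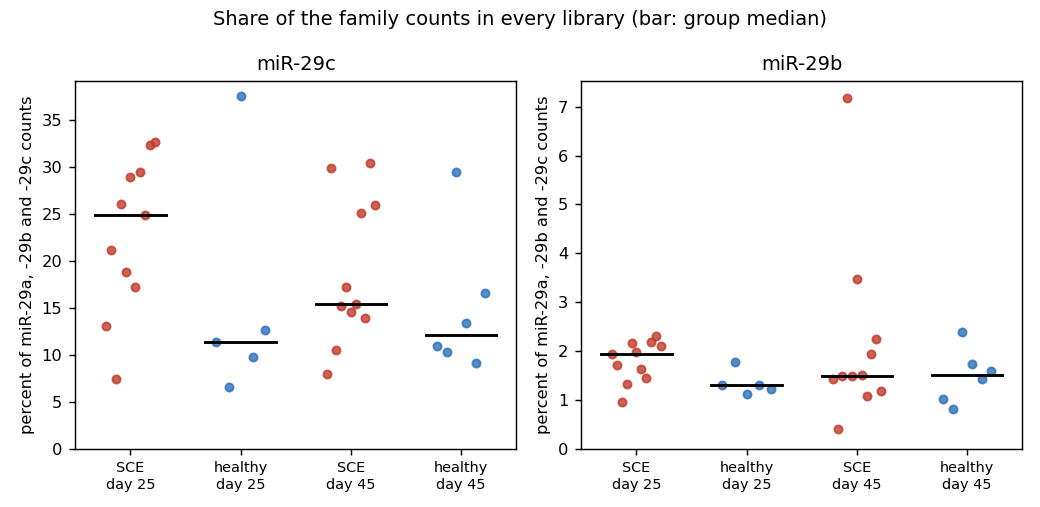
Share of miR-29c (left) and miR-29b (right) in the summed counts of miR-29a, miR-29b and miR-29c, in percent, with 1 point per library and a bar at each group's median. SCE cows stand left of healthy cows at each day. The median share of miR-29c was 24.9% in SCE cows and 11.4% in healthy cows at day 25, with healthy cow 4 above every other library at 37.6%, and the SCE cow 10 library at day 45 stood alone for miR-29b at 7.19%.

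Other rows carry the miR-29 name and held few reads. The row miR-29d-3p had 1580 counts over all libraries together and a median of 32 per library, and miR-29d-5p had 388 counts in all. The row miR-29e had 2 counts in 33 libraries. None of these is analysed further.

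At day 25 all 3 members had a higher median in SCE cows, with overlapping ranges. The level of miR-29a had a low of 351, a median of 1277 and a high of 4557 CPM in SCE cows, against 436, 592, 514, 2115 and 793 CPM in healthy cows 1, 2, 4, 5 and 6. Only 1 of the 11 SCE cows exceeded all healthy cows, and 1 lay below all of them. The level of miR-29b had a low of 7.99, a median of 34.5 and a high of 52.2 CPM in SCE cows, against 6.54, 11.5, 9.44, 31.2 and 11.2 CPM in the same healthy cows. For miR-29b, 6 of 11 SCE cows exceeded every healthy cow, and 4 of 5 healthy cows lay between 6.54 and 11.5 CPM. The level of miR-29c had a low of 54.0, a median of 368 and a high of 729 CPM in SCE cows, against 56.7, 42.4, 316, 232 and 117 CPM in healthy cows. For miR-29c, 7 of 11 SCE cows exceeded every healthy cow, and the lowest SCE cow lay between healthy cows 2 and 1.

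As log2 fold changes from edgeR at day 25, SCE over healthy, miR-29c was at 1.38 (SE 0.52, 95% interval 0.29 to 2.47), which is 2.60-fold. The log2 fold change of miR-29b was 1.17 (SE 0.47, 0.19 to 2.14), and that of miR-29a was 0.68 (SE 0.49, -0.34 to 1.69). The median over all 372 miRNAs tested was -0.05. With Benjamini-Hochberg adjustment, edgeR called 0 of the 3 members, against 0.269% of all miRNAs tested (1 of 372). At an unadjusted p under 0.05 it passed 2 of the 3, miR-29b and miR-29c, against 20.2% of all miRNAs. DESeq2, run as an alternative, called 0 of the 3, against 2.68% of the miRNAs with an adjusted p from DESeq2 (14 of 522). The contrast was known when the family was picked, so nothing is read from these counts. In a fluid without cells, more cells releasing a miRNA and more of it released per cell cannot be told apart.

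**Figure D2:**
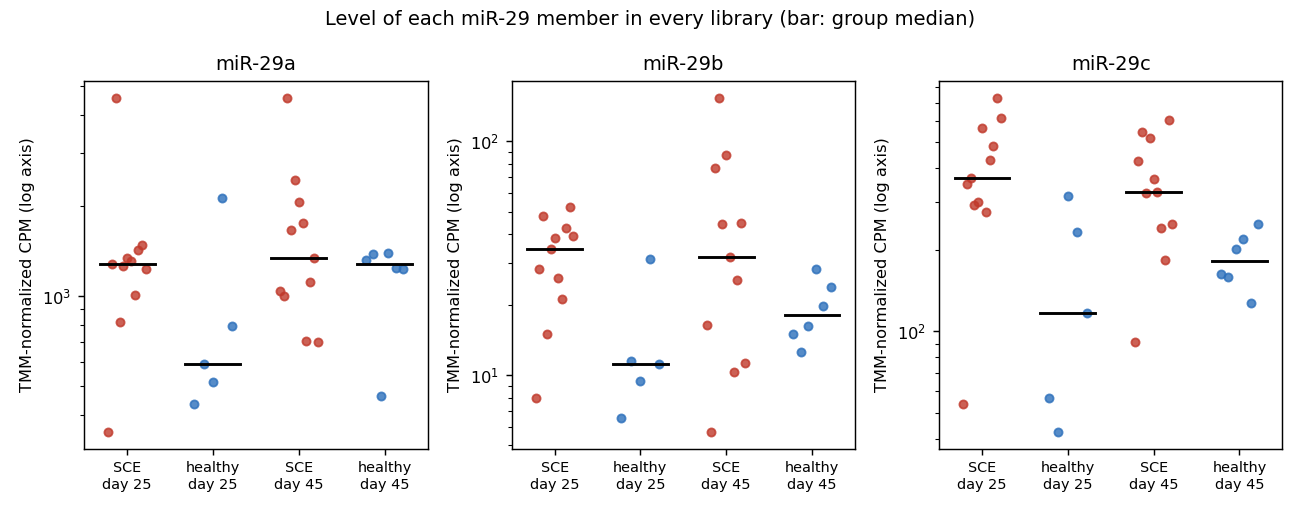
TMM-normalized CPM (log axis) of miR-29a, miR-29b and miR-29c, 1 point per library and a bar at each group's median, with SCE cows left of healthy cows at each day. The ranges of SCE and healthy cows overlap in every panel, and the bars of miR-29c lie at 368 CPM in SCE cows and 117 CPM in healthy cows at day 25, and at 327 CPM in SCE cows and 182 CPM in healthy cows at day 45.

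At day 45 the medians of miR-29b and miR-29c were again higher in SCE cows, and those of miR-29a were close. The level of miR-29a had a low of 699, a median of 1332 and a high of 4580 CPM in SCE cows, against a low of 463, a median of 1276 and a high of 1388 CPM in healthy cows. The SCE cows spread widely around the healthy ones, and 5 of 11 exceeded every healthy cow. The level of miR-29b had a low of 5.70, a median of 32.02 and a high of 153 CPM in SCE cows, against a low of 12.5, a median of 18.01 and a high of 28.4 CPM in healthy cows. For miR-29b, 6 of 11 SCE cows exceeded every healthy cow and 3 lay below every healthy cow. The level of miR-29c had a low of 91.1, a median of 327 and a high of 603 CPM in SCE cows, against a low of 127, a median of 182 and a high of 250 CPM in healthy cows. For miR-29c, 8 of 11 SCE cows exceeded every healthy cow and 1 lay below every healthy cow.

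The day-45 log2 fold changes, SCE over healthy, were 1.23 for miR-29b (SE 0.56, 95% interval 0.08 to 2.37), 0.94 for miR-29c (SE 0.38, 0.16 to 1.73) and 0.53 for miR-29a (SE 0.39, -0.28 to 1.33). The median over the 382 miRNAs tested was 0.11. Again edgeR called 0 of the 3 members, and it called 0% of all miRNAs (0 of 382), with 10.2% at an unadjusted p under 0.05, miR-29b and miR-29c among them. DESeq2 called 0 of the 3, against 0.134% of all miRNAs (1 of 748). At day 45 too, nothing is read from these counts, since the contrast was known when the family was picked.

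With each cow's libraries summed, more SCE cows lay above the range of the healthy cows for miR-29b and miR-29c than on either day alone. Per cow, miR-29c had a low of 87.3, a median of 418 and a high of 696 CPM in SCE cows, against a low of 74.8, a median of 183 and a high of 277 CPM in healthy cows. For miR-29c, 10 of 11 SCE cows exceeded every healthy cow, and the remaining SCE cow lay close to the lowest healthy cow. Per cow, miR-29b had a low of 14.5, a median of 39.2 and a high of 63.2 CPM in SCE cows, against a low of 11.1, a median of 19.3 and a high of 24.7 CPM in healthy cows, and 8 of 11 SCE cows exceeded every healthy cow. Per cow, miR-29a had a low of 872, a median of 1386 and a high of 4402 CPM in SCE cows, against a low of 465, a median of 1097 and a high of 1537 CPM in healthy cows, and 3 of 11 SCE cows exceeded every healthy cow.

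Over both days the log2 fold changes were 1.141 for miR-29c (SE 0.36, 95% interval 0.41 to 1.88), 1.03 for miR-29b (SE 0.39, 0.23 to 1.84) and 0.60 for miR-29a (SE 0.35, -0.12 to 1.33). Their intervals overlap, and the median over the 418 miRNAs tested was 0.04. edgeR called 0 of the 3, against 0.239% of all miRNAs (1 of 418), with 16.5% at an unadjusted p under 0.05, again including miR-29b and miR-29c. DESeq2 called 1 of the 3, miR-29c, against 5.24% of the miRNAs with an adjusted p from DESeq2 (15 of 286). Without SCE cow 7, edgeR called 2.39% of miRNAs (10 of 419), miR-29c among them. As at day 25, nothing is read from these counts. SCE cow 9 held the highest miR-29a level on both days, and without it the log2 fold change of miR-29a was 0.34 at day 25, 0.31 at day 45 and 0.32 over both days. Without healthy cow 5, whose day-25 library held 2115 CPM, miR-29a stood at 1.28 at day 25.

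Average proportions between the members differed between SCE and healthy cows, with overlapping ranges. Per cow, the log2 ratio of miR-29a to miR-29c was lower in SCE cows by 0.51 on average, that of miR-29a to miR-29b lower by 0.33, and that of miR-29c to miR-29b higher by 0.18. The SD among all 17 cows was between 0.57 and 0.80 for these ratios. That SD describes single cows of both groups together, and it does not measure how well a difference of averages is known. The median log2 ratio of miR-29a to miR-29c was 1.92 in SCE cows and 2.75 in healthy cows. For miR-29a to miR-29b the medians were 5.49 and 5.97, and for miR-29c to miR-29b 3.34 and 3.32, in the same order. The contrast is a description, since it uses the same status comparison.

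The share of miR-486, lower at the median in SCE cows on both days, moved with some members. Within the 11 SCE cows at day 25, the log2 CPM of miR-29c fell with the percentage of counts taken by miR-486 (Pearson r = -0.87, adjusted permutation p = 0.010; Spearman rho = -0.82, adjusted permutation p = 0.031). Without the 2 cows farthest from the median of miR-486, r was -0.78. The miR-451/miR-23a ratio, in common use as a measure of red blood cell rupture, related to miR-29c in the same cows with r = -0.72 (adjusted permutation p = 0.013) and rho = -0.82 (adjusted permutation p = 0.031). For miR-29b the relation to miR-486 had r = -0.77 (adjusted permutation p = 0.041) but rho = -0.49 (adjusted permutation p = 0.421) and r = -0.54 without the 2 farthest cows. For miR-29a r was -0.49 (adjusted permutation p = 0.328). At day 45 no adjusted permutation p was under 0.05, and miR-29c had r = -0.45 with miR-486 (adjusted permutation p = 0.374). The miR-451/miR-23a ratio at day 45 had r of 0.07 with miR-29a, 0.30 with miR-29b and -0.19 with miR-29c. Without the 2 cows farthest from the median of that ratio, these were 0.83, 0.65 and 0.16. In all 18 relations were computed, of 3 measures with 3 members on 2 days, and both sides of each come from the same library. They were chosen after these values had been seen, so r and rho are a description and the p-values are not read as tests. Healthy cows were too few for a correlation.

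With the log2 miR-486/miR-23a ratio as a covariate, the log2 fold changes of SCE over healthy cows at day 25 were 0.34 for miR-29c, 0.45 for miR-29b and 0.43 for miR-29a. At day 45 they were 0.58 for miR-29c, 0.98 for miR-29b and 0.14 for miR-29a, and over both days 0.33, 0.43 and 0.02 in the same order. The denominator miR-23a itself went with the members over the 33 libraries (r = 0.61 for miR-29c, 0.65 for miR-29b and 0.48 for miR-29a). How much of the change under this covariate came from miR-486 and how much from miR-23a was not tested. With the miR-451/miR-23a ratio instead, miR-29c stood at 1.13 at day 25, 0.88 at day 45 and 0.98 over both days. In the same order miR-29b stood at 1.06, 1.32 and 1.01, and miR-29a at 0.78, 0.55 and 0.64.

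**Figure D3:**
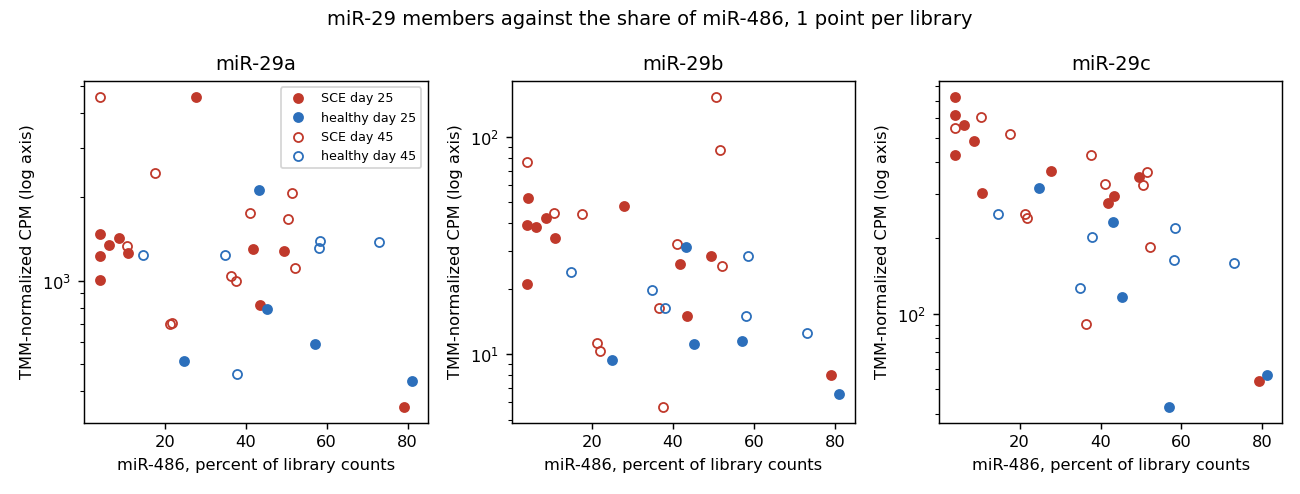
TMM-normalized CPM (log axis) of each member against the percentage of the library's counts taken by miR-486, 1 point per library, with filled points for day 25 and open points for day 45. In the miR-29c panel the day-25 SCE libraries run downward (r = -0.87 on the log2 scale), and at day 45 they are more scattered (r = -0.45).

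No change between days passed the test in either group. In SCE cows, the log2 fold change of day 45 over day 25 was 0.12 for miR-29a (SE 0.33, adjusted p = 0.933), 0.43 for miR-29b (SE 0.45, adjusted p = 0.854) and -0.26 for miR-29c (SE 0.34, adjusted p = 0.854) in edgeR's quasi-likelihood test. That fit leaves out that both libraries of a cow come from the same animal. With the cow as a block the values in SCE cows were 0.14 for miR-29a, -0.07 for miR-29b and -0.22 for miR-29c. The sign of miR-29b thus changed, and none passed. Each member was higher at day 45 in 6 of 11 SCE cows. edgeR called 0 of the 3, against 0% of all miRNAs (0 of 346), with 4.05% at an unadjusted p under 0.05. In healthy cows the log2 fold changes were 0.47 for miR-29a (SE 0.47), 0.51 for miR-29b (SE 0.51) and 0.34 for miR-29c (SE 0.50), each with an adjusted p of 0.9999 in edgeR. With the cow as a block these were 0.76 for miR-29a, 0.59 for miR-29b and 0.55 for miR-29c, and none passed. miR-29a and miR-29b were higher at day 45 in 4 of 5 healthy cows and miR-29c in 3 of 5. There too edgeR called 0% of all miRNAs (0 of 345), with 2.90% at an unadjusted p under 0.05.

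The difference of the day effect, SCE minus healthy, was -0.20 for miR-29a (SE 0.62), 0.04 for miR-29b (SE 0.73) and -0.49 for miR-29c (SE 0.60) on the log2 scale, each with an adjusted p of 0.988 in edgeR. It called 0% of all miRNAs for this difference (0 of 406), with 1.72% at an unadjusted p under 0.05. DESeq2 called no miRNA in these 3 comparisons either. Standard errors of 0.60 to 0.73 are larger than each of these differences, in a fit that leaves out that both libraries of a cow come from the same animal. With the cow as a block the differences were -0.56 for miR-29a, -0.59 for miR-29b and -0.72 for miR-29c (adjusted p = 0.977 for each in edgeR), so miR-29b changed sign and none passed.

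**Figure D4:**
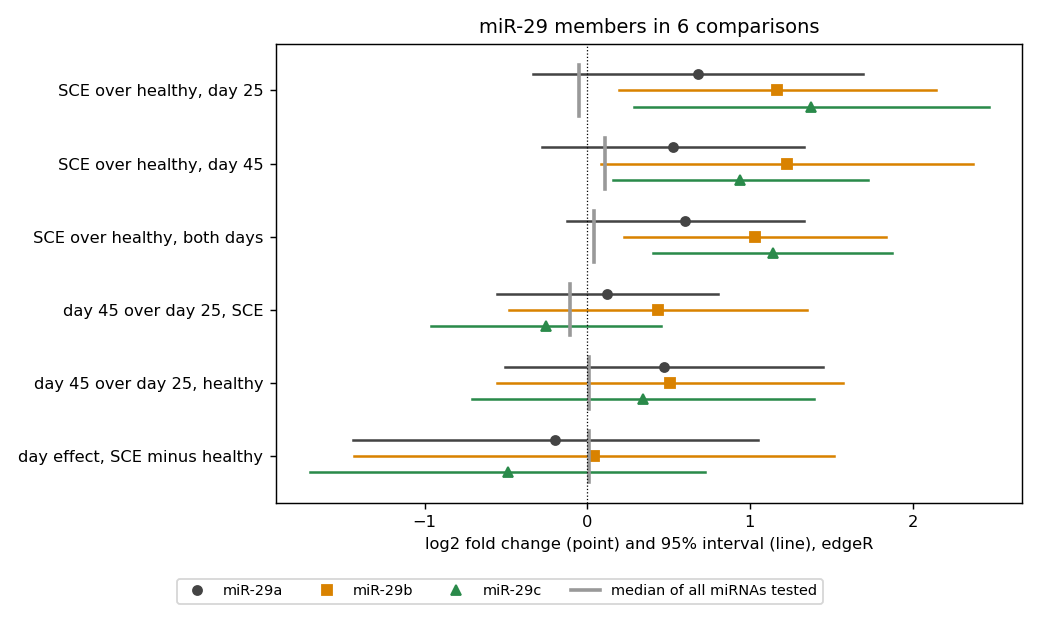
Log2 fold changes (points) with 95% intervals (lines) of miR-29a, miR-29b and miR-29c in 6 comparisons, from edgeR, with a grey mark at the median of all miRNAs tested. For SCE over healthy cows (3 comparisons) the intervals of miR-29b and miR-29c lie above 0 and those of miR-29a reach below it. These status intervals are not adjusted for the number of miRNAs, and edgeR called 0 of the 3 members after adjustment. They are a description, since the family was picked with that contrast known. Every interval of the day comparisons includes 0.

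Single cows moved far in both directions between samplings. All 3 members were higher at day 45 in 5 of 11 SCE cows and lower in 4 of them, against higher in 3 of 5 and lower in 1 of 5 healthy cows. The widest change was that of miR-29b in SCE cow 10, with 153 CPM at day 45 against 14.9 CPM at day 25, a log2 change of 3.35, on raw counts of 118 and 22. In SCE cow 8 miR-29b was lower at day 45, by a log2 change of -2.28. Neither cow moved as far in miR-29a.

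**Figure D5:**
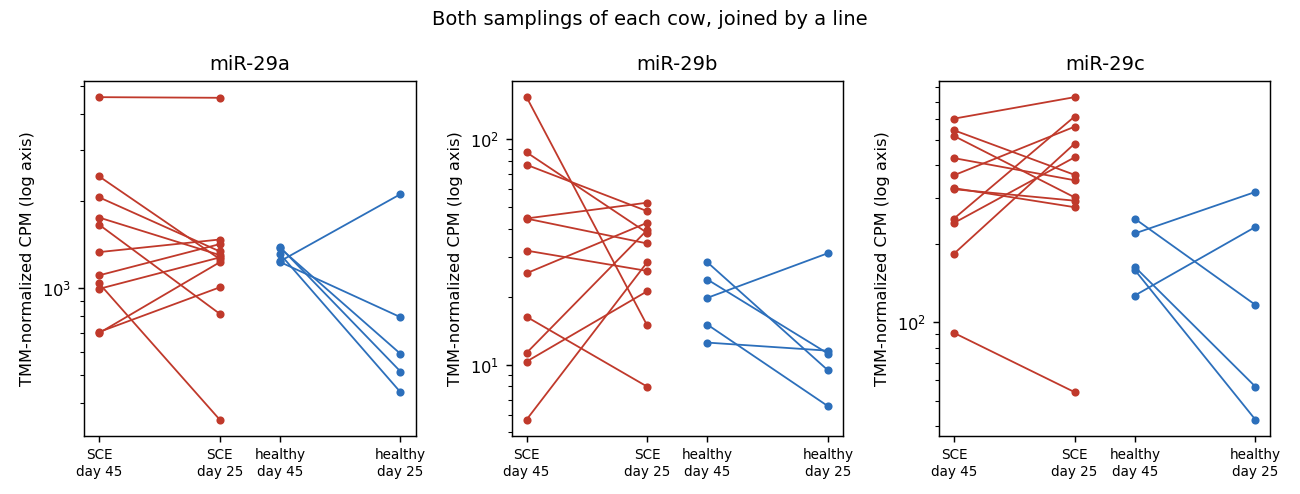
TMM-normalized CPM (log axis) of each member at both samplings, with a line joining the libraries of 1 cow, day 45 left of day 25 and SCE cows left of healthy cows. Lines run both up and down in each group, and the steepest line is that of miR-29b in SCE cow 10, at 153 CPM at day 45 and 14.9 CPM at day 25.

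For the proportions between members, no day change passed the test after adjustment. The log2 ratio of miR-29a to miR-29c was higher at day 45 in 9 of 11 SCE cows, by 0.37 on average (sign-flip permutation test, p = 0.076, adjusted p = 0.229). The ratio of miR-29a to miR-29b changed by 0.15 and that of miR-29c to miR-29b by -0.22 in SCE cows (adjusted permutation p = 0.647 for each). In the 5 healthy cows the changes were 0.16, 0.20 and -0.04 for the ratios a to b, a to c and c to b (adjusted exact permutation p = 1 for each), in a design that cannot reach 0.05.

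Whether a cow kept its level from one sampling to the next was looked at in the 11 SCE cows. Between days, the log2 CPM of miR-29a correlated with r = 0.60 (adjusted permutation p = 0.095) and rho = 0.49 (adjusted permutation p = 0.520). For miR-29c r was 0.64 (adjusted permutation p = 0.095) and rho 0.26 (adjusted permutation p = 0.522), and for miR-29b r was 0.14 (adjusted permutation p = 0.695) and rho 0.22 (adjusted permutation p = 0.522). None of these, nor the family sum, passed the threshold after adjustment over 4 relations. Without the 2 cows farthest from the day-25 median, r was 0.10 for miR-29a, 0.57 for miR-29b and -0.49 for miR-29c, so the values of miR-29a and miR-29c rested on those cows.

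Across the 33 libraries the members went together in part. The log2 CPM of miR-29a and miR-29b correlated at r = 0.76, that of miR-29c and miR-29b at 0.61 and that of miR-29a and miR-29c at 0.58. These are descriptions without a p, since 16 cows gave a pair of libraries and all values share library totals. The most similar miRNAs to miR-29a were miR-32 (r = 0.88), miR-2285bf (0.83), miR-494 (0.81), miR-27a-3p (0.78) and miR-660 (0.76). For miR-29b they were miR-27a-3p (0.74), miR-193a-3p (0.72), miR-32 (0.72), miR-342 (0.71) and miR-2285bf (0.70). For miR-29c they were miR-208b (0.80), let-7a-3p (0.78), miR-188 (0.76), miR-374b (0.75) and miR-17-3p (0.74). The top 5 of miR-29c shared no name with those of the other two. Some of these partners were scarce, so few reads set their values. Mean CPM was 2.47 for miR-494, 2.84 for miR-2285bf, 6.74 for miR-188 and 9.63 for miR-208b. The lymphocyte miRNA miR-150 had r of 0.31 with miR-29a, 0.40 with miR-29b and 0.15 with miR-29c, while miR-486 had -0.38, -0.48 and -0.76 in that order. Medians over all miRNAs were 0.13, 0.08 and 0.05.

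Other miRNAs that share targets or cell types with the family were described from 4 lists, none of which holds a miR-29 row and of which no member was called in any comparison. Among 8 miRNAs abundant in lymphocytes, 6 were higher and 2 lower in SCE cows at day 25 (median log2 fold change 0.72, against -0.05 over all miRNAs, of which 47.8% were higher). At day 45 all 8 were higher (median 0.57, against 0.11 over all miRNAs, of which 57.1% were higher). In that list miR-150 had a log2 fold change of 0.74 at day 25 (SE 0.69, adjusted p = 0.542 in edgeR) and 2.60 at day 45 (SE 0.70, adjusted p = 0.277). miR-26a, which was also on the DNA methylation list, had 1.37 at day 25 (SE 0.57, adjusted p = 0.186) and 0.54 at day 45 (SE 0.46, adjusted p = 0.690). miR-181a, which tunes T cell receptor signalling in mice, had -0.32 at day 25 (SE 0.36) and 0.01 at day 45 (SE 0.37).

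Among 7 miRNAs that target DNA methyltransferases or TET enzymes, as miR-29 does, 2 were higher and 5 lower in SCE cows at day 25 (median log2 fold change -0.25), and 3 were higher and 4 lower at day 45 (median -0.11). Among 8 miRNAs tied to fibrosis and matrix, 3 were higher and 5 lower at day 25 (median -0.19), and 5 were higher and 3 lower at day 45 (median 0.08). Here miR-21-5p, which promotes fibrosis in several tissues, had a log2 fold change of -1.64 at day 25 (SE 0.61, adjusted p = 0.185 in edgeR) and 0.03 at day 45 (SE 0.62, adjusted p = 0.995). miR-143, a smooth muscle and stromal miRNA on both lists, had -0.95 at day 25 (SE 0.53) and -0.18 at day 45 (SE 0.75). Among red blood cell miRNAs, 3 of 9 tested were higher and 6 lower in SCE cows on each day (median -0.44 at day 25 and -0.27 at day 45). In that list miR-486 had -1.54 at day 25 (SE 0.85, adjusted p = 0.296) and -1.37 at day 45 (SE 0.56, adjusted p = 0.460), and miR-92a had -0.83 at day 25 (SE 0.41) and -0.03 at day 45 (SE 0.37).

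Between days in SCE cows, 7 of 8 miRNAs of the fibrosis list were higher at day 45 (median log2 fold change 0.57, against -0.11 over all miRNAs, of which 41.6% were higher), with miR-143 at 1.63 (SE 0.63) and miR-21-5p at 1.11 (SE 0.46), each at an adjusted p of 0.705 in edgeR. In healthy cows 6 of the 8 were higher at day 45 (median 0.48, against 0.01 over all miRNAs, of which 52.8% were higher), with miR-143 at 1.11 (SE 0.68) and miR-21-5p at -0.43 (SE 0.87), each at an adjusted p of 0.9999. The lymphocyte list had 3 of 8 higher at day 45 in SCE cows (median -0.12), and the red blood cell list 3 of 9 (median -0.07).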

How the data were processed

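Small RNA libraries were made with the TruSeq Small RNA kit from 10 to 20 ng of RNA with 13 or 16 PCR cycles, per the labels' protocols. The authors deposited read counts for each mature bovine miRNA, whole numbers whose totals differ between libraries, and the protocol names no molecular identifiers. Per the submitters' processing notes, bcl2fastq 2.17.1.14, build UMD3.1 and DESeq2 were used, and the sources used here give neither aligner nor counter. Of 34 files, 33 were used, since the day-25 and day-45 files of healthy cow 3 were identical.

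Status was compared per day and on counts summed per cow, and days within each status, with edgeR 4.0.16 (R 4.3.3, quasi-likelihood F test, TMM, default filter on low counts, Benjamini-Hochberg over all miRNAs tested, adjusted p under 0.05). Standard errors are the absolute log2 fold change over the square root of F. Levels are TMM-scaled CPM, with a prior count of 2 on the log2 scale, and ratios of members used a pseudocount of 0.5. Wilson intervals are at 95% and cover counting error. DESeq2 1.42.0 was an alternative. The edgeR fit of status at day 45 was tried on simulated counts, with folds larger than those of the members. Cows were sampled on both days, so the animal number pairs libraries. Deviations from group means correlated above 0.1 in 11 of 16 cows (median 0.25).

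The members, lists and tests were chosen with earlier results of these data known, and the relations to miR-486, miR-451 and library totals after seeing these values. Named correlates are the 5 miRNAs of highest r per member, and list miRNAs named are the 2 most abundant of each list and miR-150.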

Additional observations from a re-analysis of the deposited data

Results flagged for a closer look

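Of 12 sets of values looked at, the 3 levels and 3 log2 ratios of the members in healthy cows on each day, 1 had a library far from the rest. At day 45 the log2 CPM of miR-29a was 8.86 in healthy cow 3 and 10.27 to 10.44 in the other 5 healthy cows, a gap of 0.891 of the whole range. At the 95% critical value used, chance marks about 1 in 20 sets, and these sets share libraries. The groups of 11 SCE cows were not looked at in this way. The values of healthy cow 3 were also deposited for its day 25, so their day cannot be told from the deposit. Its miR-29a level of 463 CPM lay within the range of the healthy cows at day 25, 436 to 2115 CPM. Without healthy cow 3 the day-45 log2 fold changes, SCE over healthy, were 0.46 for miR-29a, 1.32 for miR-29b and 1.05 for miR-29c.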

How the results depend on the processing

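Of the alternative values computed, 19 changed sign, 45 were marked as moved and 615 were marked as neither. Status folds were marked as moved beyond the spread among cows, and counts of calls beyond 1.5 times. Day effects, ratios and correlations were checked only for a change of sign or a crossed threshold, so some of the 615 shifted far. For miR-29a the correlation between samplings was 0.60, and 0.19 without SCE cow 9. Across all of them, 7 crossed the threshold of the adjusted p, each a member's status fold. With library totals alone in place of TMM, the log2 fold change of SCE over healthy cows was 2.02 for miR-29b at day 25, 1.35 for miR-29a at day 45 and 1.63 for miR-29c at day 45. That scaling moved the median of all miRNAs by 0.93 at day 25, 0.65 at day 45 and 0.74 over both days, so the members stood above the shifted median by about as much as before. The cow as a replicate block changed no call. Under the block the day effect in SCE cows was -0.075 for miR-29b, and that in healthy cows 0.76 for miR-29a and 0.55 for miR-29c. The difference of the day effect was -0.56 for miR-29a and -0.59 for miR-29b under the block. It was -0.14 for miR-29b with library totals and -0.065 with miR-486 removed.

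At day 25 edgeR called 1 miRNA, against 4 with DESeq2 size factors, 48 with library totals, 4 with miR-486 removed, 6 with no filter, 2 with the miR-451 covariate, and 14 with DESeq2. At day 45 it called 0, against 1 each with library totals, the miR-451 covariate and DESeq2. Over both days it called 1, against 64 with library totals, 2 each with miR-486 removed, no filter or a mean CPM of at least 10, 0 with either covariate, and 15 with DESeq2. For the difference of the day effect it called 0, against 1 with no filter. The members called in these runs were miR-29b and miR-29c at day 25 with library totals, all 3 over both days with library totals, miR-29c over both days with DESeq2, and miR-29c over both days without SCE cow 7.

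Leaving out 1 cow at a time gave 0 to 7 calls at day 25 and 0 to 10 over both days, the most without SCE cow 7 in each case. The day effect in SCE cows ranged from -0.0072 to 0.26 for miR-29a and from -0.064 to 0.60 for miR-29b, and its difference between SCE and healthy cows from -0.62 to 0.21 for miR-29b, from -0.88 to -0.051 for miR-29a and from -0.94 to -0.36 for miR-29c. Its lowest values for miR-29a and miR-29b came without healthy cow 5 and for miR-29c without healthy cow 4. In healthy cows the day effect ranged from 0.28 to 0.91 for miR-29a, from 0.27 to 0.89 for miR-29b and from 0.082 to 0.86 for miR-29c. The day change of the log2 ratio ranged in SCE cows from -0.029 to 0.40 for miR-29a to miR-29b and from -0.50 to 0.079 for miR-29c to miR-29b. In healthy cows it ranged from -0.077 to 0.31 for a to b, from -0.25 to 0.42 for a to c and from -0.49 to 0.48 for c to b. The correlation between samplings ranged from -0.023 to 0.44 for miR-29b and from -0.068 to 0.74 for miR-29c. The cause of these changes was not tested. Depth limits miR-29b most, with as few as 21 counts in a library.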
